A study of Rattus norvegicus with 12 samples.

Results

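The 10 genes described here, Pecam1, Cdh5, Esam, Kdr, Flt1, Tek, Bmx, Nos3, Vwf and Egfl7, are known for their expression in the cells that line blood vessels. They were measured in RNA of isolated epididymal adipocytes, the fat cells of the fat pad beside the testis, of male Fisher 344 rats. The labels name adipocytes as the source, but their extraction text speaks of preadipocytes, and which of them gave the RNA is not settled here. Their probes were taken as every non-control probe whose gene name in the scanner output was one of the 10 symbols, which gave 12 of 30367 probes and 10 of 26511 genes. The study compared 6 rats exposed to chronic unpredictable stress (CUS), a computer-randomized sequence of 2 stressors per day for 35 days, with 6 control rats, which were handled every 2 days when they were weighed. The stressors included swimming in cool water, rotation, food and water deprivation, disturbed lighting, wet bedding, isolation and crowding, and the labels give no age. One Cy3-labelled RNA per rat was hybridised to one Agilent array, so that n is 6 rats in each group.

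Endothelial cells are held to each other by junction proteins such as VE-cadherin, and they take their growth and survival signals from the VEGF receptors and from the angiopoietin receptor. They make nitric oxide, which relaxes the smooth muscle of the vessel, and store von Willebrand factor for release at injury. Fat tissue is richly supplied with capillaries. Fat cells are freed from it with collagenase, and a preparation of adipocytes can carry vascular cells along. In such bulk RNA, fewer endothelial cells and less of each transcript per cell cannot be told apart.

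Each value below is a log2 signal relative to the 75th percentile of the non-control probes of the same array, so that a difference of -1 is a halving against the other genes of the array. Levels of different genes cannot be set against each other on this scale, because probes differ in brightness. The tested probes numbered 19729 for 17411 genes, each gene was read from its brightest probe, and p-values came from limma, adjusted by Benjamini-Hochberg over those 19729 probes. All 12 endothelial probes were well above background on all 12 arrays and none was saturated, so every one of them was tested. The 75th percentile itself was an intensity of 541 to 627 on the CUS arrays and 230 to 400 on the control arrays. Each group was hybridised on a slide of its own, so slide and group cannot be told apart. Control replicate 3 stood apart from the other control arrays in the genes described here, and values are given with and without it. It was also unlike them as a whole, with the lowest 75th percentile of the 12 arrays, 230. Its share of probes well above background, 60.4%, was the lowest as well.

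The probes are DNA strands of 60 bases. Shown first are the 2 Vwf probes whose signals went opposite ways across arrays, and then those of Nos3, Tek, Flt1 and Cdh5, which stand for the genes that differed strongly and weakly between the groups. Capitals mark a run of 6 AC repeats, which only 0.0988% of all non-control probes carry on either strand and 1 of the 12 endothelial probes.
Vwf A_64_P114913, chr4:161854554-161854613: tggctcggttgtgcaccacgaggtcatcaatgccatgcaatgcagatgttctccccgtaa
Vwf A_64_P286599, chr4:161738186-161738245: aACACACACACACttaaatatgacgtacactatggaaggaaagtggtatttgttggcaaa
Nos3 A_44_P198620, chr4:6159286-6159345: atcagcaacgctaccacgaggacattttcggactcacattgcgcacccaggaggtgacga
Tek A_44_P534601, chr5:115178576-115178635: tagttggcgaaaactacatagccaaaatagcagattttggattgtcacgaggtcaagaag
Flt1 A_64_P201730, chr12:7957094-7957153: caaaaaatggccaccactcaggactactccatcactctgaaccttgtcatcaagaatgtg
Cdh5 A_64_P145597, chr19:779665-779724: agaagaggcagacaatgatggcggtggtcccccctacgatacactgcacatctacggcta
The positions come from the design file of the array (rat build rn4), and each sequence reads in the sense of the probe. The other probes lay at chr10:96056219-96056278 (Pecam1), chr8:38783957-38784016 (Esam), chr3:4769382-4769441 (Egfl7), chrX:51047290-51047349 (Bmx) and chr4:161854702-161854759 (the brightest Vwf probe). The Kdr probe has no position in the design.

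Endothelial identity genes were lower in adipocytes of CUS rats than in those of control rats, most of them by more than 2-fold. By limma 8 of the 10 genes were lower at an adjusted p under 0.05, none was higher, and Kdr and Flt1 did not pass. The background was broad, since 25.9% of all tested genes were lower in CUS and 24.1% higher. By probe, 10 of the 12 were lower, where 25.4% of all tested probes were lower, 24.6% higher and 50% changed in either direction. For 6 of the 10 genes the fall was 2-fold or more, against 8.79% of all tested genes. The median difference of the 10 genes was -1.50, where that of all tested genes was -0.03. Without control replicate 3 all 10 genes passed as lower, with 30.5% of all tested genes. That array was the lowest control for all 10 genes, so leaving it out enlarges each of their differences by construction. With scaling on spike-in RNA, described below, only 2 of the 10 passed as lower.

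Among the junction and surface proteins, Pecam1, an adhesion molecule at the contacts between endothelial cells, had log2 signals between 2.07 and 3.27 (median 2.65) in CUS and between 2.41 and 4.68 (median 4.31) in controls. The 6 CUS values lay below 5 of the 6 control values, and control replicate 3, at 2.41, lay inside the CUS range. Pecam1 was lower by a log2 difference of -1.46 (standard error 0.36, adjusted p = 0.0056), or 36.4% of the control level. Esam, an adhesion molecule of endothelial tight junctions, ran from 0.04 to 1.14 (median 0.61) in CUS and from -0.16 to 2.42 (median 1.76) in controls. Its difference of -0.95 lay at the edge of the threshold (standard error 0.37, adjusted p = 0.048). Leaving out any one of 9 of the 12 arrays took Esam past the threshold (adjusted p up to 0.0996), whereas without control replicate 3 the difference was -1.29 (adjusted p = 0.00036). Cdh5, the VE-cadherin of adherens junctions, had the narrowest gap of the junction genes, with values of -1.61 to -0.60 (median -1.27) in CUS and -1.22 to -0.43 (median -0.63) in controls. The Cdh5 difference was -0.48 (standard error 0.17, adjusted p = 0.036), and 4 control arrays lay below the highest CUS array. It did not pass when any one of 8 of the 12 arrays was left out (adjusted p up to 0.082) and was positive, at 0.31, with scaling on spike-in RNA.

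The receptors differed among themselves. Kdr, the main VEGF receptor of endothelial cells, had signals of 3.43 to 4.41 (median 3.99) in CUS and 3.14 to 5.23 (median 4.49) in controls. The groups overlapped, and the difference of -0.49 did not pass (95% interval -1.15 to 0.17, adjusted p = 0.197). Flt1, a VEGF receptor with a membrane-bound and a soluble form that its probe does not separate, ran from -1.98 to -0.82 (median -1.36) in CUS and from -2.49 to -0.11 (median -0.82) in controls. Its difference was -0.37 (95% interval -1.10 to 0.35, adjusted p = 0.37). Without control replicate 3 the differences were -0.74 for Kdr (adjusted p = 0.012) and -0.67 for Flt1 (adjusted p = 0.018). Tek, the receptor of the angiopoietins, ran from -5.03 to -3.71 (median -4.48) in CUS and from -4.62 to -2.26 (median -2.70) in controls. Its log2 difference was -1.54 (standard error 0.38, adjusted p = 0.0053), 34.3% of the control level, and -1.03 where normexp was used to correct the background, with an offset of 50 added to the signals.

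Bmx, a tyrosine kinase of the TEC family found in arterial endothelium, separated the groups without overlap. Its signals were -3.13 to -1.85 (median -2.48) in CUS and -1.21 to -0.25 (median -0.63) in controls, and control replicate 3, at -1.21, was again the lowest control. The difference of -1.89 was 27.0% of the control level (standard error 0.22, adjusted p = 4.8e-05). Bmx was the 1 gene of the 10 whose CUS arrays all lay below all control arrays, a pattern shown by 11.7% of all tested genes, while 10.3% had all CUS arrays above all control arrays. With control replicate 3 left out there were 7 such genes of the 10, against 19.4% of all tested genes, and Kdr, Flt1 and Cdh5 still overlapped. Leaving out the lowest control can only lessen the overlap.

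The secreted proteins and the synthase fell together. Nos3, the endothelial nitric oxide synthase, had signals of -1.56 to -0.48 (median -1.01) in CUS and -0.999 to 1.35 (median 0.85) in controls. Its difference was -1.67 (standard error 0.35, adjusted p = 0.0021), 31.4% of the control level. Egfl7, a protein that endothelial cells secrete into their matrix, lay between -0.10 and 1.01 (median 0.51) in CUS and between 0.58 and 2.81 (median 2.58) in controls, with a log2 difference of -1.77 (standard error 0.35, adjusted p = 0.0014). For both genes 5 control arrays lay above every CUS array, and control replicate 3 lay among the CUS values. The brightest Vwf probe, for the clotting protein stored in endothelial granules, ran from 1.02 to 1.88 (median 1.31) in CUS and from 1.45 to 3.43 (median 3.19) in controls, with a difference of -1.54 (standard error 0.31, adjusted p = 0.0016).

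**Figure D1:**
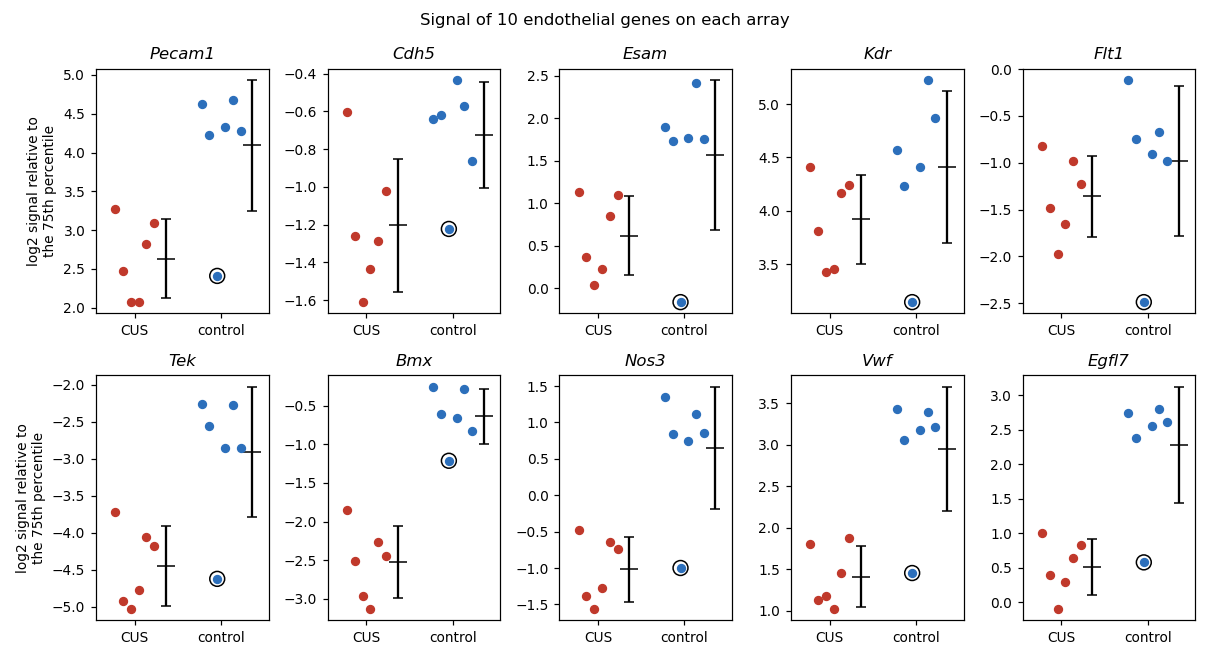
Log2 signal of each of the 10 genes relative to the 75th percentile of the array (vertical axes), for the 6 CUS arrays (red) and the 6 control arrays (blue), with the mean and SD beside the points. The circled point is control replicate 3, the lowest control for 10 of 10 genes, and only Bmx shows no overlap with it included.

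All 10 differences were negative relative to the 75th percentile, and also with quantile normalization, with the authors' table and with normexp correction. Relative to spike-in RNA, which is added in equal amount to each sample, the median of all tested probes was 0.77 higher in CUS, and the differences moved up with it. On that scale Bmx (-1.11, adjusted p = 0.0037) and Egfl7 (-0.99, adjusted p = 0.041) still passed as lower. Nos3 (-0.88, adjusted p = 0.066), Vwf (-0.76, adjusted p = 0.080), Tek (-0.76), Pecam1 (-0.67) and Esam (-0.16, adjusted p = 0.756) were negative without passing, and Cdh5 (0.31), Kdr (0.30) and Flt1 (0.41) were positive without passing. The unscaled spike-in signals differed by -0.008 between CUS and control arrays (exact permutation test, two-sided, p = 0.95). The falls reported above are therefore relative to the other transcripts of the same array.

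**Figure D2:**
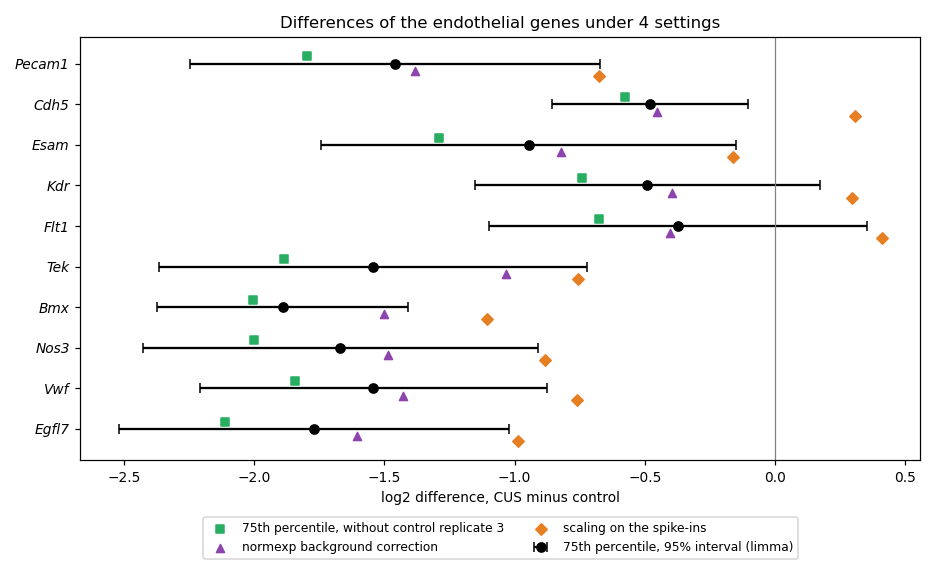
Log2 difference, CUS minus control, of each gene (horizontal axis) with all arrays and its 95% interval from limma (black), without control replicate 3 (green), with normexp background correction (purple) and with scaling on spike-in RNA (orange). Kdr, Flt1 and Cdh5 lie right of 0 only with scaling on spike-in RNA.

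Differences between 2 endothelial genes on the same array do not depend on how the array is scaled, since any scaling factor cancels. The size of such a difference reflects the brightness of the 2 probes, and only its change between the groups is read here. Of the 45 pairs among the 10 genes, 18 showed no overlap between the 6 CUS and the 6 control arrays, which is 40% of the pairs, where 14.5% of all pairs of an endothelial gene with another tested gene did so. These 2 shares are not like for like, because genes that vary together give differences of smaller spread. The median r within groups was 0.92 among the 10 genes, and -0.06 (CUS) and -0.29 (control) with all tested genes. The exact permutation test over all 924 assignments of 6 arrays gave p under 0.05 for 29 of the 45 pairs, unadjusted, and for those without overlap p = 0.0022, the smallest it can give. Kdr or Flt1 was a partner in 12 of the 18 pairs, and Esam or Cdh5 in the other 6.
Relative to Kdr and to Flt1, each of Pecam1, Vwf, Nos3, Egfl7, Tek and Bmx was lower in CUS without overlap.

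The pairs given next with an exact permutation p of 0.0022 were picked among those without overlap. That choice fixes their p, which is unadjusted. Nos3 minus Flt1 was 0.10 to 0.49 in CUS and 1.47 to 1.84 in controls, so that Nos3 fell by 1.30 more than Flt1 on the log2 scale (exact permutation test, p = 0.0022). Egfl7 minus Kdr was -3.53 to -3.17 in CUS and -2.57 to -1.82 in controls, a change of -1.28 (p = 0.0022, exact). Pecam1 minus Esam, both proteins of cell contacts, was 1.84 to 2.13 in CUS and 2.27 to 2.73 in controls, a change of -0.51 (p = 0.0022, exact). Cdh5 minus Bmx was 0.99 to 1.70 in CUS and -0.39 to 0.22 in controls, a change of 1.41 (p = 0.0022, exact). Of the 15 pairs among the 6 genes that fell by 2-fold or more, none was without overlap and 3 had an unadjusted exact permutation p under 0.05. These were Pecam1 minus Bmx (0.43, exact p = 0.015), Pecam1 minus Egfl7 (0.31, exact p = 0.011) and Vwf minus Egfl7 (0.23, exact p = 0.030). Vwf minus Tek averaged 5.86 ± 0.30 on the CUS arrays and 5.86 ± 0.22 on the control arrays (SD, 6 arrays each, exact permutation p = 0.99), and Egfl7 minus Bmx differed by 0.12 (p = 0.80, exact). The match of Vwf and Tek depends on the background correction, since with normexp their group differences were -1.43 and -1.03. Likewise Kdr minus Flt1 differed by -0.12 (p = 0.59, exact) and Cdh5 minus Kdr by 0.01 (p = 0.96, exact).

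Control replicate 3, whose levels lay in or below the CUS range for 9 of the 10 genes, lay inside the CUS range in 15 of the 45 within-array differences, 5 of them with Cdh5. Its Pecam1 minus Cdh5 value was 3.63, for example, with CUS arrays between 3.51 and 4.11. In the 18 pairs without overlap it lies on the control side by the way they were picked. It stood apart from the other controls in some of these, as in Flt1 minus Bmx, where it was -1.28 and the control median -0.20. A fit over all other tested probes relative to the Kdr signal of the array was chosen after Kdr was seen not to pass. In it 6 of the 9 other genes were lower in CUS by limma, while 1.75% of all tested genes were lower and 5.99% higher. Genes that vary with Kdr across arrays lose spread in this fit, and unrelated genes take on the spread of Kdr. The r of the 9 genes with Kdr within groups was 0.69 to 0.99, so these shares are not like for like. Bmx led with -1.40 (adjusted p = 0.0092), followed by Egfl7 with -1.28 (adjusted p = 0.011), and Pecam1 was closest to the threshold with -0.97 (adjusted p = 0.042). Esam (-0.46, adjusted p = 0.26), Cdh5 (0.01) and Flt1 (0.12) did not pass relative to Kdr.

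**Figure D3:**
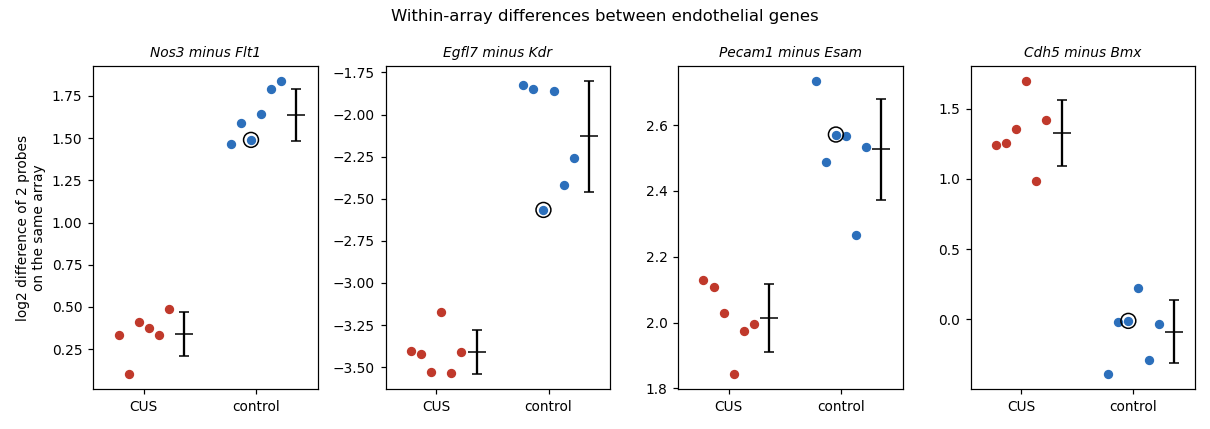
Log2 difference between 2 probes of the same array (vertical axes) for 4 pairs of endothelial genes, with the 6 CUS arrays in red, the 6 control arrays in blue, and mean and SD beside the points. The groups do not overlap in any of the 4 pairs, which were picked among those without overlap. Control replicate 3 is circled.

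In CUS the endothelial genes went up and down together from rat to rat, and in controls they did so largely through replicate 3. Over the 6 CUS arrays, Pearson's r of the 45 pairs ran from 0.75 to 0.99, with a median of 0.92. By Pearson's r, 38 of these pairs passed an exact permutation test over all pairings, adjusted over the 90 pairs of both groups. Over the 6 control arrays r ran from 0.69 to 1.00, with a median of 0.92, and 30 pairs passed. By Spearman's rho in the same test far fewer passed (adjusted p = 0.031 for each). In CUS these were Nos3 with Tek and the pairs among Esam, Egfl7 and Kdr. In controls they were Pecam1 with Esam and the pairs among Tek, Flt1 and Bmx. The r of an endothelial gene with all tested genes had a median of -0.06 in CUS and -0.29 in controls. It was at least as high as the median among the 10 genes for 2.92% of tested genes in CUS and 6.45% in controls. These correlations share the arrays and their scaling, and they are a description of 6 rats each.

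The closest pair in CUS was Nos3 and Tek (r = 0.99, exact permutation p = 0.0028, adjusted p = 0.028, Spearman's rho = 1.00). Without the 2 CUS arrays farthest from the median of Nos3, r was 1.00. The next was Pecam1 and Kdr (r = 0.99, exact permutation p = 0.0028, adjusted p = 0.028, rho = 0.94, and r = 0.99 without the 2 farthest arrays). CUS replicate 1 was the highest CUS array for 9 of the 10 genes, Vwf being highest in replicate 6, and the lowest was replicate 3 for 7 genes and replicate 4 for 3. The mean of the 10 genes, as the deviation from the CUS mean, was 0.56 in CUS replicate 1 and -0.51 in CUS replicate 3.

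In controls the correlation rested largely on replicate 3, whose mean deviation was -1.38, with the other 5 arrays between 0.13 and 0.52. Without it the median r fell to 0.68, with single pairs between -0.27 and 0.97. The r of an endothelial gene with all tested genes then reached that median for 11.9% of them. Vwf and Egfl7 stayed together (r = 1.00 over 6 arrays and 0.97 without replicate 3), as did Tek and Bmx (0.92 and 0.95). Cdh5 did not: its r with the 9 others ran from 0.69 to 0.87 over 6 control arrays and from -0.27 to 0.35 over the 5 other than replicate 3. Kdr and Flt1, which did not pass between the groups, had r = 0.94 over the CUS arrays (exact permutation p = 0.0097, adjusted p = 0.030, rho = 0.94, and r = 0.88 without the 2 farthest arrays) and r = -0.04 over the 5 control arrays.

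**Figure D4:**
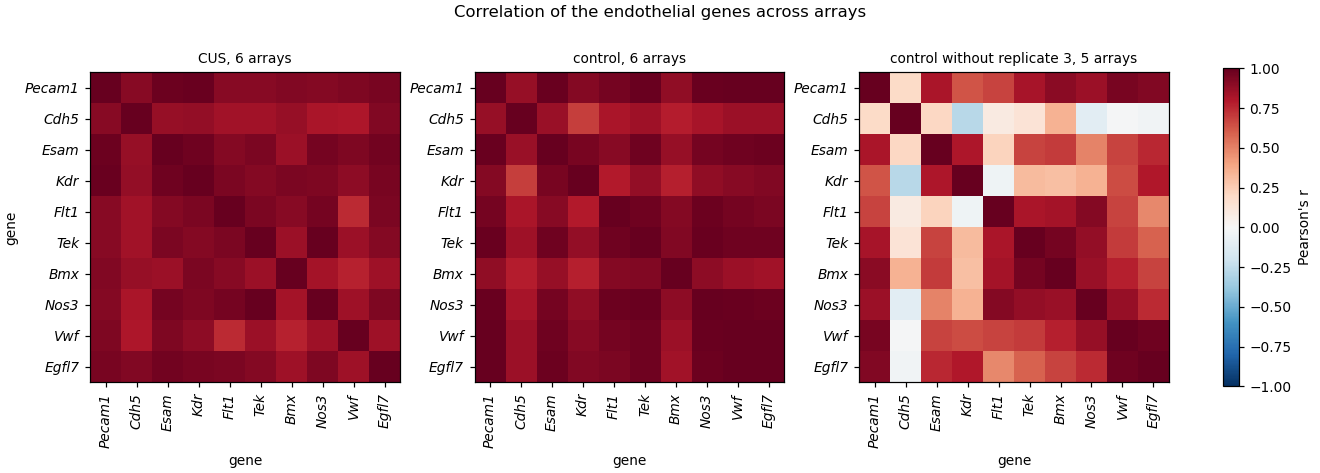
Pearson's r of each pair of the 10 genes (colour, from -1 to 1) over the 6 CUS arrays, the 6 control arrays, and the 5 control arrays other than replicate 3. The medians are 0.92, 0.92 and 0.68, and the row of Cdh5 loses its colour in the third panel.

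Vwf has 3 probes, and they did not report alike. The probes A_64_P136501 and A_64_P114913 lie 88 bases apart and gave r = 0.99 over the CUS arrays and r = 1.00 over the control arrays (exact permutation p = 0.0014 and 0.0028, adjusted p = 0.0083 for each over 6 probe pairs, rho = 1.00 and 0.94). The third, A_64_P286599, which holds the AC repeats shown above, lies 116308 bases from them on rn4. It ran from -3.10 to -1.73 (median -2.18) in CUS and from -1.82 to 1.06 (median -0.62) in controls. Its highest value of all arrays, 1.06, was in control replicate 3, where both other Vwf probes had their lowest control value. Its r with A_64_P114913 was -0.60 over the CUS arrays (exact permutation p = 0.21) and -0.80 over the control arrays (exact permutation p = 0.0042, adjusted p = 0.0083, rho = -0.94). With the 9 other endothelial genes its r was below 0 for 9 of 9 in CUS (median -0.27) and for 9 of 9 in controls (median -0.81, and -0.65 without replicate 3, with 8 below 0). The group difference of this probe was -1.83 (standard error 0.41, adjusted p = 0.0031), beside -1.73 and -1.54 for the other probes. Whether it reads a Vwf transcript is not settled here, and without it 9 of 11 endothelial probes were lower.

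**Figure D5:**
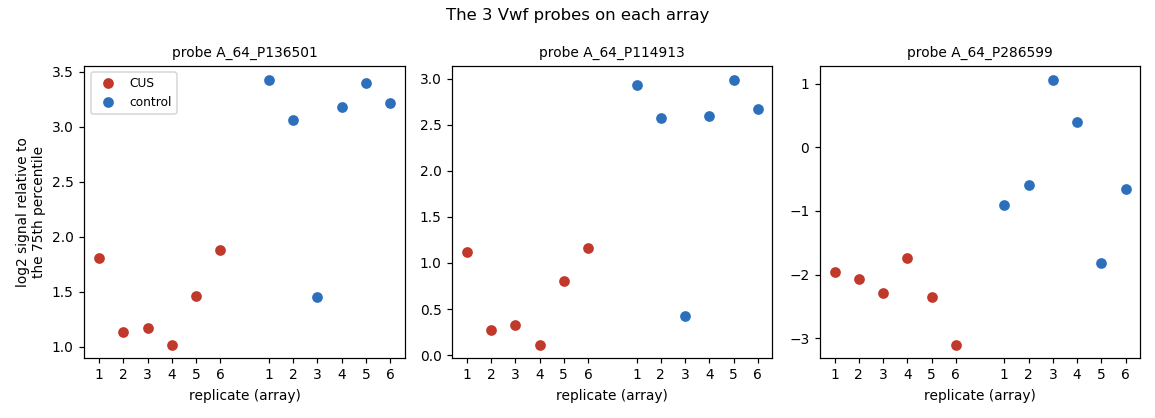
Log2 signal relative to the 75th percentile (vertical axes) of the 3 Vwf probes on each array, CUS in red and control in blue, with replicate numbers on the horizontal axis. In control replicate 3 the first 2 probes have their lowest control values, 1.45 and 0.42, and A_64_P286599 its highest, 1.06.

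Other genes of endothelial cells, from lists of 67 genes of which 62 were tested, were lower in CUS for 25 and higher for 6, with a median difference of -0.62, where 25.9% of all tested genes were lower and 24.1% higher. Of the 12 transcription factors 4, close to that share, were lower and none higher. Sox18, a factor of vessel development, led with -1.18 (adjusted p = 0.0026), Hhex and Sox17 stood at -0.94 and -0.86, and Gata2 at -0.70 was positive with scaling on spike-in RNA. Of 24 surface and junction genes 10 were lower and none higher, among them Plvap, the protein of fenestral diaphragms (-1.64, adjusted p = 0.0057), Arhgef15 (-1.45), the phosphatase Ptprb (-1.40) and Cd93 (-1.39). Of 11 arterial and Notch genes 7 were lower and 1 was higher. The gap junction gene Gja5 of arterial endothelium fell by 1.68, Notch4 by 1.31, Jag2 by 1.13 and Efnb2 by 1.12. Of 5 lymphatic genes Reln (-1.89) and Flt4 (-0.89) were lower and Pdpn (1.02) was higher. With scaling on spike-in RNA none of the 62 passed as lower, and without control replicate 3 there were 42.

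Of 10 activation genes 4 were higher and 2 lower, with 24.1% and 25.9% over all tested genes, and their median difference was -0.18. The 2 lower genes were F8 (-0.92, adjusted p = 0.0030 by limma) and Tfpi (-0.35, adjusted p = 0.046). P-selectin, Selp, which platelets also carry, lay between 3.5 and 4.39 in CUS and between -0.92 and 3.14 in controls, higher by 2.30 (standard error 0.53, adjusted p = 0.0036). E-selectin, Sele, was higher by 1.94 (adjusted p = 0.0084) and Icam1, which other cells also express, by 1.40 (adjusted p = 1.4e-05), both without overlap between the groups. All CUS arrays lay above all control arrays for 10.3% of all tested genes. Procr, the protein C receptor, was higher by 0.96 (adjusted p = 0.039). These 4 were also higher with normexp correction, Selp by 2.26, Icam1 by 1.41, Procr by 0.685 and Sele by only 0.59. The size of the Sele difference thus depends on the background correction. Scaling on spike-in RNA or on Kdr raises the differences of all genes alike, so a higher gene stays higher there by construction. Relative to Kdr on the same array, limma gave adjusted p = 3.4e-05 for Selp and 0.00015 for Sele, with 5.99% of all tested genes higher. As given above, shares in this fit are not like for like for genes that vary with Kdr.

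The shares over all tested genes were 24.1% higher and 25.9% lower in CUS, and neither list given next exceeded them. Of 8 ligands of the receptors Kdr, Flt1 and Tek, 1 passed, Vegfb, which binds Flt1 and was higher by 0.54 (adjusted p = 0.023). Of 10 genes around nitric oxide synthesis and response 2 were higher and 2 lower. Gch1, which makes the cofactor that Nos3 needs, was higher without overlap between the groups (1.87, adjusted p = 0.00080), a pattern of 10.3% of all tested genes. Gucy1a3, a subunit of the nitric oxide receptor, was lower by a difference of -1.03 (adjusted p = 0.041). Nos2, the inducible synthase, was also lower (-1.002), and Arg2 was higher (0.95) but lower with normexp correction. With scaling on spike-in RNA 5 of the 8 ligands and 6 of these 10 genes were higher and none lower, and Gucy1a3 (-0.25, adjusted p = 0.64) and Nos2 (-0.22, adjusted p = 0.54) did not pass. On that scale 12301 of 19729 tested probes were higher.

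The 10 genes outside all lists whose profile over the 12 arrays, with the group means removed, was closest to the mean of the endothelial genes were Gpr4, Lama5, Fes, Ssc5d, Fgd5, Adgrf5, Upp1, Adcy4, Ushbp1 and Apold1. Their r was 0.989 to 0.995 among 14990 genes ranked, and 0.965 to 0.983 without control replicate 3. Their group differences were spread widely. Lama5, a laminin of basement membranes, stood at -1.73 (adjusted p = 0.0023), and Fgd5 at -1.49 (adjusted p = 0.0026). Gpr4 (-0.23, adjusted p = 0.64) and Apold1 (0.35, adjusted p = 0.49) did not pass, and neither did Adgrf5 (-0.65), Upp1 (-0.66) and Adcy4 (-0.77). The last 3 and Gpr4 were positive with scaling on spike-in RNA. The surface and junction list had a median r of 0.97 with this profile (0.90 without control replicate 3), and the smooth muscle and pericyte markers 0.95 (0.85). The activation genes had 0.95 (0.86 without that array), the fibroblast markers 0.91 (0.70) and the macrophage markers 0.90 (0.70). The adipocyte markers had -0.80 (-0.40), where all ranked genes had -0.26 (-0.08).

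Markers of other cells are given against the same shares of all tested genes, 25.9% lower and 24.1% higher in CUS, near which the adipocyte, platelet, macrophage and fibroblast counts lay. Of 10 smooth muscle and pericyte markers 7 were lower in CUS and 1 was higher, with a median difference of -1.24, led by Actg2 (-3.09), Cnn1 (-2.51) and Acta2 (-1.71), and with scaling on spike-in RNA 2 were lower. Their summed signal, in units of the 75th percentile, was 15.8 to 26.4 in CUS and 15.8 to 65.9 in controls, with 33.7 the lowest of the controls other than replicate 3. The summed signal of the 10 endothelial genes was 20.3 to 40.9 in CUS and 20.8 to 90.6 in controls, with 58.3 the lowest of the controls other than replicate 3. Such sums follow mostly the brightest probes, here Kdr and Pecam1, with mean log2 signals of 4.41 and 4.09 in controls. Of 10 adipocyte markers 3 were higher and 3 lower, with sums of 1481 to 1805 in CUS and 1454 to 2800 in controls, replicate 3 being the highest, and 7 were higher and none lower with scaling on spike-in RNA. All 6 red blood cell genes tested were higher in CUS (median 4.34), with sums of 1719 to 2345 in CUS and 49.97 to 143 in controls. Of 9 mast cell genes 8 were higher (median 2.68), with sums of 2.24 to 5.83 in CUS and 0.36 to 0.54 in controls, although Mcpt1 did not pass with normexp correction. Of 4 platelet genes tested Pf4 was higher (1.22) and Gp9, Gp1bb and Treml1 did not pass. Of 8 macrophage genes 2 were higher, C1qa and, with another of its probes passing the opposite way, Csf1r, with sums of 29.7 to 77.8 in CUS and 11.2 to 43.2 in controls. Of 7 mesothelial genes 5 were higher, with sums of 10.8 to 17.6 in CUS and 2.60 to 14.0 in controls. Fibroblast markers were lower for 2 of 8, Col1a1 (-1.64) and Col3a1 (-1.17), and higher for Dpt (0.35). Of 5 genes of T and NK cells Prf1 and Gzmb were higher, as were both neutrophil genes tested, S100a9 and Mpo, and Prf1, Gzmb and S100a9 did not pass with normexp correction. Schwann cell genes were higher for 3 of 6 and lower for 2. The part of these cells in the endothelial differences was not tested.

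RefSeq promoters (assembly GRCr8, 300 bases around the start of the gene) were given for 5 of the 10 genes, with 2 for Egfl7. Those of Nos3, which fell strongly, and of Kdr, which did not pass, are shown, with matches to 2 motifs of ETS factors, CAGGAA and CCGGAA on either strand, in capitals.
Nos3, chr4:11706532-11706831, minus strand: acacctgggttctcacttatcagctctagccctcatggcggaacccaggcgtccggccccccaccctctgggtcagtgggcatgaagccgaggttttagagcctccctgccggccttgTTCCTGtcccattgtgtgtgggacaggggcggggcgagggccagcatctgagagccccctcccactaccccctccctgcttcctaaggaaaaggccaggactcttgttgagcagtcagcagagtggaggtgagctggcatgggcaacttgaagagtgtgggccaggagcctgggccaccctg
Kdr, chr14:32571813-32572112, plus strand: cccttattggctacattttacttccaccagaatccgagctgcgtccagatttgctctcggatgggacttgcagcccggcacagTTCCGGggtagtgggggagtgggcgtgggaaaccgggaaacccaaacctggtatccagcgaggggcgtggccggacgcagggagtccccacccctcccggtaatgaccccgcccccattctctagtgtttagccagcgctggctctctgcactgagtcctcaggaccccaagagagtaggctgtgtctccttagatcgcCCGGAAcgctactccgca
CAGGAA was in 3 of the 6 promoters (Nos3, Bmx and 1 of Egfl7) and in 29.1% of all 33469 promoters of this length, and CCGGAA in 1 of 6 (Kdr) and in 15% of all. The GATA motif AGATAA was in none of the 6 and in 11.6% of all.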

How the data were processed

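Epididymal adipocyte RNA of 6 CUS and 6 control rats was hybridised to 1-colour Agilent arrays, 1 array per rat. The authors deposited scanner intensities from Agilent Feature Extraction (10.7.3.1), background-subtracted and detrended by that software, and a quantile normalized intensity table, used as an alternative. Outlier spots were dropped (13 for Nos3), replicate spots averaged and log2 intensities set relative to the 75th percentile of the array. Testing took the probes detected well above background on 6 or more of the 12 arrays and was done with limma 3.58.1 (R 4.3.3), two-sided, at an adjusted p of 0.05. A gene was read from its brightest tested probe. Probes were named by accession (17514), symbol (2669) or synonym (689) through RefSeq, and otherwise kept the file's name (9495). Other steps ran in Python 3.11.15 (pandas 2.3.3, NumPy 2.4.6).

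Named are the 10 genes with every probe and the 10 genes with the profile most like theirs. Of each other list, up to 4 genes that passed are named, by size of difference. Gp9, Gp1bb, Treml1, F8 and Tfpi fall outside this rule. The genes and lists were chosen with earlier results of these data known. On simulated data with 200 changed probes among 19729, limma recovered 16 of 73 at a log2 change of 0.5, 53 of 66 at a change of 1, 59 of 61 at a change of 2, and made 7 false calls. The simulated noise was independent between probes, with no slide effect and no outlying array. These rates need not hold for the data, where 50% of the tested probes were called. Alternatives covered scaling, background correction, filter, probe choice, test, variance model, replicate block, each array left out in turn and scaling on Kdr, the last chosen after seeing the data.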

Additional observations from a re-analysis of the deposited data

Results flagged for a closer look

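In 8 of 24 probe and group combinations, 1 array lay farther from its group than Dixon's 95% limit for 6 values allows, and in all 8 it was control replicate 3, below the other controls. Chance alone exceeds this limit in about 1 in 20 groups, and these probes vary together, so they are not 8 separate cases. The log2 signals of control replicate 3 were 2.41 for Pecam1, 0.425 and 1.45 for the Vwf probes A_64_P114913 and A_64_P136501, -0.999 for Nos3, -0.162 for Esam, 0.576 for Egfl7, -4.62 for Tek and -2.49 for Flt1. The gap to the next control took between 0.634 (Flt1) and 0.837 (Vwf A_64_P114913) of the range. Kdr, Cdh5, Bmx and the Vwf probe A_64_P286599 stayed within the limit, as did every CUS array.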

How the results depend on the processing

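The 8 genes called lower were the same 8 with quantile normalization, the authors' table, normexp correction, no filter, the strict filter, a variance trend and the mean of all probes. With scaling on the spike-ins and with no scaling, 2 genes (Bmx and Egfl7) and 3 probes were called, the third with the spike-ins being the Vwf probe A_64_P286599, and the differences of Cdh5 (0.31 and 0.30), Kdr (0.30 and 0.29) and Flt1 (0.41 and 0.40) turned positive, as did Cdh5 (0.011) and Flt1 (0.12) relative to Kdr. Of the other endothelial genes, 0 were then lower with the spike-ins (limma) and 1 with no scaling, and 14 were higher with each; all differences rise by the same amount in these settings. The methods' t-test called 6 genes, without Esam and Cdh5 (adjusted p = 0.079 and 0.054), and 6 at its unadjusted threshold with a fold of 2, where 2338 probes passed in all. With no filter 17663 probes passed. Of the 9874 probes called, 49.2% were higher in CUS, against 95.8% with the spike-ins, 94.8% with no scaling and 33.6% with normexp. Leaving out 1 array gave 6 to 10 genes, 8 to 12 probes, 19 to 42 other endothelial genes lower, 4 to 6 higher, 18 to 26 pairs without overlap, and a median r of 0.88 to 0.94 in CUS and 0.68 to 0.96 in controls. The 10 genes, 12 probes, 42 other endothelial genes, 26 pairs and the lowest control r were those without control replicate 3. Spearman's rho had a median of 0.77 in controls, and normexp left 14 pairs without overlap. The replicate numbers did not pair the rats (r of same-numbered deviations -0.19 to 0.43); with them as a block 9 genes and 11 probes passed, Kdr being added (adjusted p = 0.0498), and 33 other endothelial genes were lower.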
